A study of Homo sapiens with 2 samples.

Results

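The RNAs of 6 noncoding genes were followed in hTrmt13 CLIP-seq libraries: RN7SL1, RN7SL2 and RN7SL3, which encode 7SL RNA, RN7SK, which encodes 7SK RNA, RPPH1, the RNA of ribonuclease P, and RMRP, the RNA of ribonuclease MRP. They were chosen by gene symbol, as noncoding RNAs made by RNA polymerase III with known roles in ribonucleoproteins, and make up 6 of the 741078 features in the authors' count tables. In CLIP-seq a protein is isolated with an antibody together with the RNA crosslinked to it, and that RNA is sequenced. hTrmt13 (TRMT13) is a human tRNA methyltransferase, and the assay was meant to find the tRNAs it binds. All libraries came from MDA-MB-231, an established human breast carcinoma line. They form 1 group of 2 replicates, replicate 2 and replicate 1, with no genotype or treatment in the labels. With 0 control libraries (input or mock antibody), a recovered share is not an enrichment.

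7SL RNA is the scaffold of the signal recognition particle, which brings ribosomes that make secreted and membrane proteins to the endoplasmic reticulum. 7SK RNA holds the elongation kinase P-TEFb inactive, together with HEXIM, LARP7 and MEPCE proteins. RPPH1 is the catalytic RNA of ribonuclease P, which removes the leader of tRNA precursors, and RMRP is its relative in ribonuclease MRP, which cuts ribosomal RNA precursors. These enzymes share most of their protein subunits. All of these RNAs are abundant in dividing human cells. The promoters of RN7SK, RPPH1 and RMRP lie outside the transcribed part, whereas 7SL genes also use elements inside it.

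The 3 genes of 7SL RNA differ at few positions, which bears on how their reads can be told apart. Their GENCODE release 29 transcripts were matched by symbol and aligned, with positions counted from 1 at the 5′ end. RN7SL2 differed from RN7SL1 by 4 substitutions and an extra base at its end. RN7SL3 differed from RN7SL1 by 7 substitutions and from RN7SL2 by 11. RN7SL1 and RN7SL2 were identical over 205 bases, from position 70 to 274, and all 3 shared 123 bases, from position 119 to 241. A read lying wholly in such a stretch matches each of those genes equally well, so the counts of a single 7SL gene are uncertain. How reads with several matches were placed is not given in the sources used here.

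**Figure D1:**
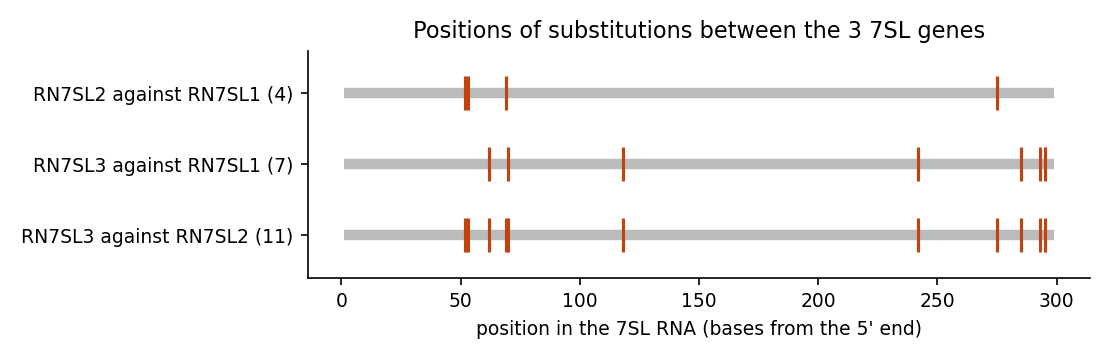
Positions, in bases from the 5′ end of the RNA, at which the 3 7SL genes differ, with 1 row for each pair of genes and the number of substitutions in brackets. The differences lie between positions 52 and 118 and between 242 and 295, and the stretch between is the same in all 3.

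RN7SK, RPPH1 and RMRP are shown for what they share with each other or with copies. The sequences are release 29 transcripts too, written 5′ to 3′ as DNA letters. Capitals in 7SK RNA mark bases that differ from, or are missing in, RN7SKP118, the 7SK copy with the highest counts, and capitals in RPPH1 and RMRP mark the longest run that both hold, 9 bases. RN7SK and RPPH1 are given from position 1 to 300 of 328 and 333 bases, and RMRP whole at 268 bases.
RN7SK: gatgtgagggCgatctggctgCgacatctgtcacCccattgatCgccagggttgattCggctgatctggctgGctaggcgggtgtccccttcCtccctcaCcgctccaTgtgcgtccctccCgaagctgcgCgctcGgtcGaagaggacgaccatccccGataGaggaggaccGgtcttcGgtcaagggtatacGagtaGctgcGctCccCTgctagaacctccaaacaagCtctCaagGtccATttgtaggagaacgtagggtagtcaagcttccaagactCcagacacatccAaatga
RPPH1: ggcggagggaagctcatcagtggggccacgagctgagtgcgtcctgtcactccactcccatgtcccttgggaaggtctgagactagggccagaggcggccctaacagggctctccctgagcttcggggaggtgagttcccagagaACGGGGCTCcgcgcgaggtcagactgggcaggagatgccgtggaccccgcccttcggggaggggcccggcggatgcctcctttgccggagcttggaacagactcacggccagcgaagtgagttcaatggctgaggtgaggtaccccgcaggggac
RMRP: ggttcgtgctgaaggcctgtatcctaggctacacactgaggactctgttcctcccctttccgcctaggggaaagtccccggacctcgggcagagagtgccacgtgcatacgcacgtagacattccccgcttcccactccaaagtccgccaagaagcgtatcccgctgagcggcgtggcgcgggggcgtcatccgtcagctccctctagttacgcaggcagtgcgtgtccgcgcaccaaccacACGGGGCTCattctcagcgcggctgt

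Each library had 1 table for each read mate. Replicate 2 had 8793089 R2 counts and 20590398 R1 counts, and replicate 1 had 11246823 and 27907799, most of them in tRNA features and the features that overlap these. Values below are from R1 unless R2 is named, and CPM are counts scaled to a table total of 1e+06. Nothing in the labels ties the replicates to separate cultures, so the SD between them, and any p, may reflect technical spread alone. Intervals cover counting error only, and they and the tests treat each read as an independent molecule. PCR reads without molecular identifiers are not independent, so intervals may be too narrow and p too small. In these bulk libraries more cells, more RNA per cell and more RNA held by the protein cannot be told apart. The counts did not set the labelled line apart by its markers: 5 mesenchymal markers had a median of 0.937 CPM, with VIM at 24.4 ± 15.1 CPM and CD44 at 0.385 ± 0.0637 CPM (SD, n = 2 each), against 1.01 CPM for 5 epithelial markers and 0.352 CPM for 5 markers of other cell types.

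All 6 RNAs were recovered in both libraries and with both mates. Their sum was 45285 counts in replicate 2, which is 0.220% of its R1 table (0.218 to 0.222%, 95% Clopper-Pearson interval). In replicate 1 the sum was 23304 counts, or 0.0835% (0.0824 to 0.0846%). The summed level was 1517 ± 965 CPM (SD, n = 2). It was 2199 CPM in replicate 2 and 835 CPM in replicate 1, so all of the levels in CPM carry a wide spread.

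The 7SL genes took the largest part of the 6. They held 57.3% of the summed counts in replicate 2 (95% interval 56.9 to 57.8%) and 50.1% in replicate 1 (49.4 to 50.7%), or 53.7% ± 5.13 (SD, n = 2). RN7SL2 (ENSG00000265150.1, chromosome 14, 50329271 to 50329567, minus strand, all positions on hg19) had 13457 counts in replicate 2 and 5731 in replicate 1. RN7SL1 (ENSG00000283029.1_4, chromosome 14, 50053297 to 50053596, plus strand) had 11462 counts in replicate 2 and 5406 in replicate 1. RN7SL3 (ENSG00000266037.1, chromosome 14, 50320336 to 50320632, minus strand) had 1046 and 534 counts, and so took 4.03% of the 7SL counts in replicate 2 and 4.58% in replicate 1. Among these 3 genes, RN7SL1 and RN7SL2 thus held nearly all of the R1 counts as the tables assign them.

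RN7SK (ENSG00000283293.1_2, chromosome 6, 52860419 to 52860746, plus strand) had 6977 counts in replicate 2 and 4975 in replicate 1. A second line under the same symbol, longer by a few bases, held the same counts and was not added. RN7SK stood at 339 CPM in replicate 2 (95% interval 331 to 347) and at 178 CPM in replicate 1 (173 to 183).

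RPPH1 (ENSG00000259001.3_4, chromosome 14, 20811207 to 20811844, minus strand) had 8878 counts (431 CPM) in replicate 2 and 4235 counts (152 CPM) in replicate 1. Its listed span of 638 bases is longer than the RNA. On GRCh38, in release 29, the gene of this identifier holds the RNA of 333 bases, which starts 278 bases after the 5′ end of the gene. RMRP (ENSG00000269900.3_2, chromosome 9, 35657748 to 35658015, minus strand) had 3465 counts (168 CPM) in replicate 2 and 2423 counts (86.8 CPM) in replicate 1. RPPH1 was above RMRP in both libraries.

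**Figure D2:**
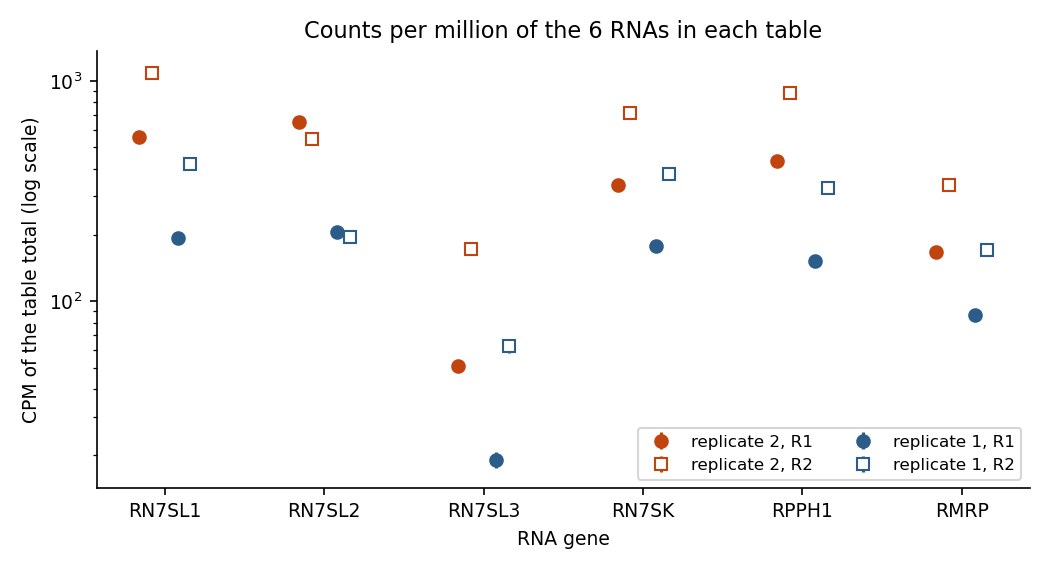
CPM of the table total (log axis) for each RNA, in replicate 2 (left of each pair) and replicate 1, with R1 as filled circles and R2 as open squares. Bars are 95% Clopper-Pearson intervals and are mostly smaller than the symbols. Replicate 2 is above replicate 1 for every RNA with the same mate, and RN7SL3 is lowest throughout.

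Per kilobase of transcript, the mean level ran from RN7SL2 (1432 ± 1056 CPM per kilobase) through RN7SL1 (1255 ± 858), RPPH1 (875 ± 593), RN7SK (788 ± 346) and RMRP (476 ± 215) to RN7SL3 (117 ± 74.9 CPM per kilobase; SD, n = 2 each). For the first 4 pairs of neighbours in this order the difference was smaller than the larger of both SDs. These SDs also hold the shift between the libraries, in which every RNA was higher in replicate 2. In both libraries RN7SL2 was above RN7SL1, RN7SL1 above RPPH1 and RN7SK above RMRP. The step between RMRP and RN7SL3, 359 CPM per kilobase, was larger than either SD. RPPH1 and RN7SK changed places between the libraries, with RPPH1 at 1295 CPM per kilobase in replicate 2 and 456 in replicate 1, and RN7SK at 1033 and 543. For RPPH1 the level per kilobase of transcript takes all counts of the listed 638 bases to lie in the RNA of 333 bases. That was not tested, as read positions are not given. Per kilobase of the listed feature, RPPH1 stood at 457 ± 310 CPM per kilobase (SD, n = 2), a mean below that of RMRP. The order turned between the libraries, with RPPH1 at 676 against 628 for RMRP in replicate 2, and 238 against 324 in replicate 1. By that length the 6 RNAs had a median of 632 CPM per kilobase. The median was 1716 over the 473 tRNA features and 0.107 over the 18723 features of any kind whose mean count reached 10.

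The RNAs differed in how far replicate 2 stood above replicate 1, although no condition separates these libraries. For each feature, an exact binomial test (two-sided) set the split of its counts against library sizes scaled by TMM, with Benjamini-Hochberg adjustment over 18723 features and a threshold of 0.05. TMM sets the bulk of features, mostly mRNA genes, near a ratio of 1. The test called 8.8% of all features, 2.29% as higher and 6.52% as lower in replicate 2. It called all 6 RNAs, 4 higher and 2 lower. With counts as high as those of the members the test passes small ratios. It compares 1 library with 1 other and covers counting error only.

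RN7SL2 had the highest log2 ratio of replicate 2 over replicate 1, 0.58 (95% interval 0.53 to 0.62; exact binomial test, adjusted p = 1.34e-147), followed by RN7SL1 at 0.43 (0.38 to 0.48; adjusted p = 6.83e-74). RPPH1 stood at 0.41 (0.36 to 0.47; adjusted p = 2.34e-53) and RN7SL3 at 0.32 (0.16 to 0.47; adjusted p = 0.000681). RN7SK stood at -0.17 (-0.22 to -0.11; adjusted p = 2.24e-08) and RMRP at -0.14 (-0.21 to -0.06; adjusted p = 0.00591). The lower calls of RN7SK and RMRP rested on this scaling, since with table totals they stood at 0.93 and 0.95. In R2 neither was called, with RN7SK at -0.04 (adjusted p = 0.515) and RMRP at 0.02 (adjusted p = 0.900). RMRP was also not called with the mates summed (adjusted p = 0.0881). The 7SL genes and RPPH1 were called higher in R2 too, 4 members with 0 called lower, where 6.44% of 17753 features were called, 1.5% higher and 4.94% lower.

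With table totals in place of TMM every log2 ratio is larger by 1.09. All 6 RNAs were then called higher, between 1.90-fold for RN7SK and 3.18-fold for RN7SL2, but 82.7% of all features were called, 81.3% higher and 1.44% lower. In numbers, 15221 features were called higher and 270 lower with table totals, against 428 and 1220 under TMM.

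Ratios between the RNAs do not depend on scaling. The counts of each pair of RNAs in the libraries were compared by Fisher's exact test, with adjustment over 15 pairs, and 11 pairs differed. Pairs of other features were not compared, so this number has no background share beside it. With counts this high the test passes small differences, such as a log2 difference of -0.15 for RN7SL1 against RN7SL2. Relative to RN7SK, the 7SL genes summed were 1.59-fold higher in replicate 2 than in replicate 1 (log2 difference 0.67, 95% interval 0.60 to 0.73). Relative to RMRP, RPPH1 was 1.47-fold higher in replicate 2 (log2 difference 0.55, 0.46 to 0.64; adjusted p = 1.70e-31 by Fisher's exact test), so the RNAs of the related enzymes did not move together between the libraries. RN7SK and RMRP did not pass this test, with a log2 difference of -0.03 (-0.12 to 0.06). RN7SL1 and RPPH1 did not either, with 0.02 (-0.05 to 0.09). In R2, 8 of the 15 pairs differed. Those lost were RN7SL2 against RN7SL1 (adjusted p = 0.114 by Fisher's exact test), against RN7SL3 (adjusted p = 1) and against RPPH1 (adjusted p = 0.606).

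Lists of other small RNAs had median log2 ratios of replicate 2 over replicate 1 of -1.05 or lower under TMM, where the test called 6.52% of all features lower. Of 8 Y and vault RNAs, which are also made by RNA polymerase III, 7 had enough counts and all 7 were called lower in replicate 2, with log2 ratios between -1.29 and -1.01. RNY1, a scaffold of Ro ribonucleoproteins, had 2668 counts in replicate 2 and 3496 in replicate 1, a log2 ratio of -1.04, and VTRNA1-2 had 450 and 616, a log2 ratio of -1.11. VTRNA2-1 had 0 counts in both. Of 6 other RNA polymerase III transcripts tested (genes of U6 and U6atac RNAs and BCYRN1), 4 were called lower and 0 higher, with a median of -1.37. RNU6-7 led this list with 32 and 49 counts, followed by RNU6-9 with 28 and 53, and RNU6-8 was lowest with 9 and 10 counts, too few to be tested. Of 14 spliceosomal RNAs made by RNA polymerase II, 9 were called lower and 0 higher, with a median of -1.21. RNU1-2 led with 545 and 765 counts and RNU1-4 followed with 516 and 731, while RNU1-1 was lowest with 10 and 11. Over the 6 RNAs the median was 0.37, over 473 tRNA features -1.10, and over all features tested 0.00 within rounding. RNU5E-1, at -0.03, lay above RN7SK and RMRP. The calls in both lists of RNA polymerase III transcripts rested on the scaling, and those of the spliceosomal RNAs did so only in part. With table totals, 0 of the 7 Y and vault RNAs were called (median 0.05) and 0 of the 6 other RNA polymerase III transcripts (median -0.28). Of the 14 spliceosomal RNAs, 1 was then called higher and 5 lower (median -0.12), and these 5 were also called lower under TMM. Over all features, table totals gave 81.3% called higher and 1.44% lower. The difference between these lists was not itself tested.

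**Figure D3:**
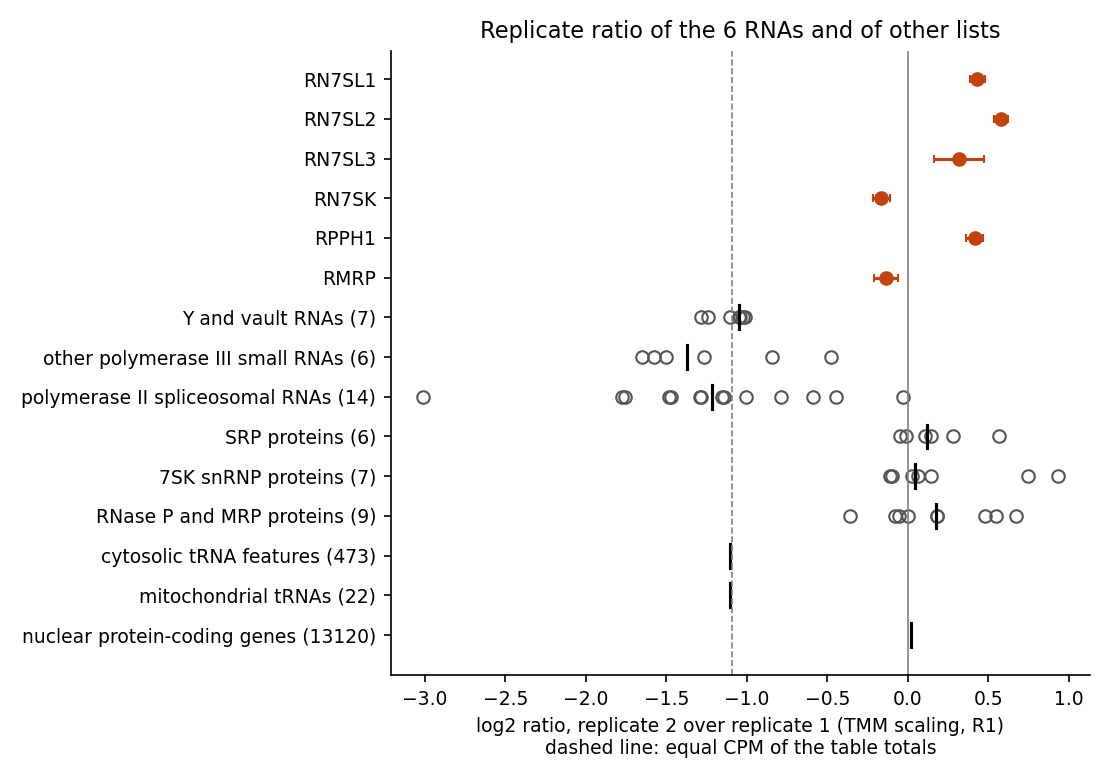
Log2 ratio of replicate 2 over replicate 1 in R1 under TMM scaling, for each of the 6 RNAs (filled, with 95% intervals), for the tested features of 6 lists (open circles, bar at the median) and as the median alone for 3 classes, with the number of features in brackets. The 6 RNAs lie between -0.17 and 0.58 and the Y and vault RNAs between -1.29 and -1.01. With table totals the zero moves to the dashed line, and RN7SK and RMRP then lie above it.

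The genes of the partner proteins had fewer counts than the 6 RNAs, but not fewer than most features in every list. The median over all features tested was 2.70 CPM. Calls are under TMM, where 8.8% of all features were called. With table totals, which called 81.3% of all features higher, the calls were 6 of 6 higher for the signal recognition particle, 4 of 5 for its receptor and the translocon, 7 of 7 for the 7SK particle, 9 of 9 for ribonucleases P and MRP, 17 of 18 for RNA polymerase III factors and 2 of 2 for Ro and La, with 0 lower. The 6 proteins of the signal recognition particle had a median of 6.23 CPM and a median log2 ratio of 0.12, with 1 called higher and 0 lower. That was SRP72, at 6.33 ± 4.65 CPM (SD, n = 2; log2 ratio 0.57, exact binomial test, adjusted p = 0.0294). SRP9 and SRP68 led the list with 11.1 ± 6.95 and 8.44 ± 4.69 CPM, and SRP14 was lowest with 1.59 ± 0.776 CPM (SD, n = 2 each). Of 5 genes of its receptor and of the translocon, 0 were called in either direction, and SEC61A1, the pore subunit, led with 14.0 ± 7.10 CPM (SD, n = 2), then SRPRA with 6.39 ± 3.26 CPM, while SEC61B was lowest with 1.20 ± 0.576 CPM.

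The 7 proteins of the 7SK particle had a median of 2.41 CPM and 0 were called. CCNT1 and CCNT2, the cyclins of P-TEFb, led with 6.44 ± 2.98 and 5.23 ± 2.98 CPM, and HEXIM2 was lowest with 0.809 ± 0.435 CPM (SD, n = 2 each). Of 11 subunits of ribonucleases P and MRP, 9 reached the mean count of 10 and 0 were called. RPP38 and RPP14 led with 5.76 ± 2.02 and 4.43 ± 2.11 CPM, and RPP21 was lowest, with 1 count in each library.

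Among 13 RNA polymerase III subunits, POLR1C and POLR3A led with 15.6 ± 9.14 and 11.6 ± 5.83 CPM, and POLR3GL was lowest with 0.707 ± 0.442 CPM (SD, n = 2 each). Of 18 factors of this polymerase 0 were called. GTF3C1, a TFIIIC subunit, led with 26.2 ± 13.9 CPM and POU2F1 followed with 13.6 ± 6.73 CPM, while SNAPC2 was lowest with 0.478 ± 0.423 CPM (SD, n = 2 each). The Ro and La genes TROVE2 and SSB stood at 9.57 ± 5.42 and 5.21 ± 3.01 CPM (SD, n = 2 each), with 0 called. Per kilobase of the listed gene, introns included, the medians of these lists lay between 0.135 and 0.277 CPM per kilobase, against 0.107 over all features tested.

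The mates separated the 7SL genes. For RN7SK, RPPH1 and RMRP the R2 count was 90.1%, 87.2% and 85.9% of the R1 count in replicate 2, and 85.1%, 86.4% and 79.0% in replicate 1. RN7SL1 was close to these at 83.7% and 87.0%. RN7SL2 stood at only 35.5% in replicate 2 and 38.5% in replicate 1, with 4774 R2 counts against 13457 R1 counts, and 2209 against 5731. RN7SL3 lay above 100%, at 145% and 132%. The mates are reads of the same fragments and not independent, so no test was made between them.

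The share of 7SL counts therefore moved with the mate. RN7SL2 held 30.0% of the 7SL counts of R2 in replicate 2 (95% interval 29.3 to 30.8%) against 51.8% of those of R1 (51.2 to 52.4%). In replicate 1 it held 29.01% of R2 (28.0 to 30.0%) against 49.1% of R1 (48.2 to 50.02%). RN7SL1 led 7SL in R2, with 60.4% in replicate 2 and 61.7% in replicate 1, and RN7SL3 held 9.57% and 9.25%. The order of the 7SL genes by R1 is therefore not that by R2, in either library. The part of the substitutions between these genes in this was not tested.

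**Figure D4:**
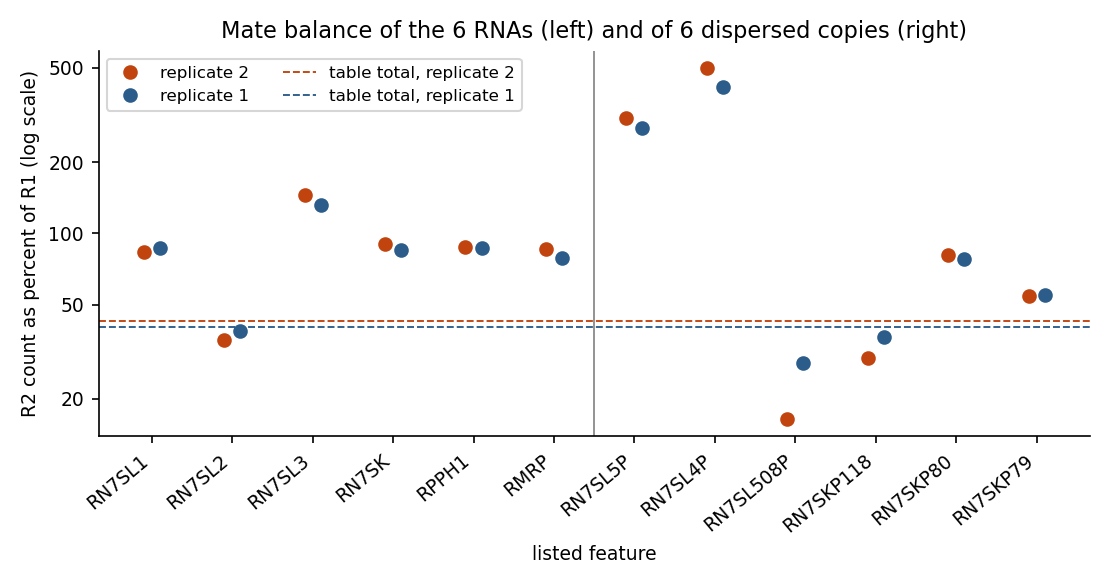
R2 count as a percent of the R1 count (log axis) for the 6 RNAs (left) and for the 3 7SL copies and 3 7SK copies with the highest counts (right), in replicate 2 and replicate 1. Dashed lines give the same percent for the table totals. RN7SL2 lies below those lines in both libraries while RN7SL1 and the other members lie above them, and RN7SL4P and RN7SL5P lie far above 100%.

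Across classes, the median R2 count was 84.1% of R1 in replicate 2 and 87.3% in replicate 1 over all features tested, and 38.4% and 40.2% over tRNA features. For the Y and vault RNAs it was 40.8% and 52.7%. Except for RN7SL2 and RN7SL3, the members thus lay near the level of most features and above that of tRNA in both libraries. The table totals, which tRNA dominates, stood at 42.7% and 40.3%, and CPM in R2 are therefore higher for these members. RPPH1, for example, stood at 880 CPM in R2 of replicate 2 and 325 CPM in R2 of replicate 1.

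Other listed features share reads with some of the members. RPS29, a ribosomal protein gene on the minus strand, spans the whole of RN7SL1 on the plus strand. It had 11578 counts in replicate 2 and 5488 in replicate 1, and without those of RN7SL1 116 and 82 remained. In R2 RPS29 had 9700 counts against 9596 for RN7SL1 in replicate 2, and 4766 against 4701 in replicate 1. Strand use in counting is not stated in the labels. Features on opposite strands held nearly the same counts here, so the counting did not separate the strands at this place. RP11-596C23.6, a long noncoding RNA gene around RN7SL2 on the same strand, had 13459 counts in replicate 2 and 5733 in replicate 1, and all but 2 in each library were also those of RN7SL2. PARP2, on the strand opposite to RPPH1, shares 104 bases with the listed RPPH1 feature, 174 bases away from the RNA on GRCh38, and had only 87 counts in replicate 2 and 46 in replicate 1. RN7SL3 and RMRP overlapped no other listed feature, and RN7SK only its second line. Of the listed piRNAs, 0 overlapped a member. The tables give no position of reads along an RNA.

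Dispersed copies of these RNAs took reads as well, to a degree that differed between the families. In replicate 2 the 844 listed 7SL copies held 3990 counts, 13.3% of copies and genes together, and in replicate 1 they held 1596, or 12.0%. In R2 they held 28.8% and 28.2%. RN7SL5P had 2471 R2 counts against 804 R1 counts in replicate 2, and 1146 against 410 in replicate 1. RN7SL4P had 2433 against 489 in replicate 2, and 1144 against 277 in replicate 1. RN7SL5P has 84.8% identity to RN7SL1, with 21 mismatches and 28 gap positions. RN7SL4P has 86.6% identity to RN7SL2, with 26 mismatches and 15 gap positions. The RN7SL5P transcript that was aligned, 321 bases, is longer than its listed feature. RN7SL508P, with 82.8% identity to RN7SL1, was next, with 182 R1 counts in replicate 2 and 53 in replicate 1. With the copies added, R2 stood at 74.5% of R1 for 7SL in replicate 2 and 79.9% in replicate 1, nearer to the other RNAs than the 61.2% and 65.2% of the 3 genes alone.

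The 291 copies of 7SK held 6084 counts in replicate 2 and 6427 in replicate 1, which was 46.6% and 56.4% of the 7SK counts with RN7SK itself. In R2 their part was smaller, at 33.9% and 41.8%. The R2 count of the copies was 53.0% of R1 in replicate 2 and 47.4% in replicate 1, against 90.1% and 85.1% for RN7SK. RN7SKP118 (chromosome 16, 67355561 to 67355890, minus strand) had the most, 2862 and 3038 counts, followed by RN7SKP80 with 465 and 570 and RN7SKP79 with 403 and 570. RN7SKP118, RN7SKP80 and RN7SKP79 have 90.2%, 93.0% and 80.6% identity to RN7SK. Under TMM all 3 copies were called lower in replicate 2, with log2 ratios of -0.74, -0.95 and -1.15 (exact binomial test, adjusted p = 6.35e-84, 2.64e-24 and 1.05e-33). With table totals these ratios were 0.35, 0.14 and -0.06, so the direction of RN7SKP118 and RN7SKP80 turns with the scaling. The copies together had a log2 ratio of -0.73 under TMM and 0.36 with table totals, against -0.17 and 0.93 for RN7SK, a difference that was not tested. The sum of both gave -0.46 and 0.63. Reads of the copies and of RN7SK can be told apart only where they span a difference.

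Copies of RNase P and MRP RNA were nearly empty. The 5 copies of RMRP had 3 counts in replicate 2 and 2 in replicate 1, against 3465 and 2423 for RMRP. RMRPP3 had 3 and 1 counts, RMRPP4 had 0 and 1, and RMRPP1 had 0 in both. The 2 copies of RPPH1, RPPH1-2P and RPPH1-3P, had 0 counts in R1. Listed copies thus held almost none of the counts of these families.

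The features closest to each RNA over the 4 tables were found by the Euclidean distance of log2(CPM + 0.5) among 18699 features, as a description over 2 libraries. Members, piRNAs and features overlapping a member, such as RP11-596C23.6, were left out. Of the features that remained, RN7SL2 was nearest to tRNA-Glu-CTC-1-6 at a distance of 1.28, then tRNA-Gly-CCC-2-2 at 1.29 and MIR3687 at 1.35. RN7SK was nearest to the mitochondrial mRNA MT-CO1 at 0.47, then RP5-875O13.1 and the tRNA gene it overlaps, tRNA-Glu-TTC-4-1, both at 0.66. RPPH1 was also nearest to MT-CO1, at 0.79, then EEF2 at 1.05 and ACSL3 at 1.06. RMRP was nearest to SLIT2 at 0.24, then EEF1A1P5 at 0.40 and tRNA-Val-TAC-1-2 at 0.44. The neighbours of RN7SL2 were farther from it than those of RN7SK and RMRP from theirs.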

How the data were processed

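Per the labels' protocols, RNA held by hTrmt13 was dephosphorylated, treated with Alkb enzymes, ligated to an adaptor, gel-purified and amplified by PCR. The deposited values are counts in whole numbers, without normalization, in 4 tables of the authors (R1 and R2 of both libraries). Bowtie2 2.3.5.1, bedtools 2.24.0 and the hg19 (GRCh37) build are named in the submitters' processing notes. Aligner settings, strand use and the placing of multiply matching reads: not given in the sources used here. After 13 repeated lines were dropped, 741078 features remained.

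CPM, shares with exact Clopper-Pearson 95% intervals, levels per kilobase, and the binomial and Fisher tests were computed with Python 3.11.15, numpy 2.4.6, pandas 2.3.3 and scipy 1.17.1. TMM factors came from edgeR 4.0.16 and alternative size factors from DESeq2 1.42.0, in R 4.3.3. Features entered the test with a mean R1 count of at least 10. Log2 medians of lists used a pseudocount of 0.5. With 1 group, no model between conditions was possible. The binomial test was tested on simulated Poisson counts, without PCR duplicates or added spread between libraries. This cannot show how the test performs on counts that hold them. Sequences were aligned with Biopython 1.88 and figures drawn with matplotlib 3.10.9. Identity leaves out unaligned ends and counts each gap position within the alignment as a difference. Calls among the RNA polymerase III subunits and the sequences of 7SL RNA are not reported here. 3 RMRP copies could not be matched to a transcript.

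Members and gene lists were chosen with earlier results of these data known. The text names the members, the features overlapping them, the 3 highest copies of each family, the 2 highest genes and the lowest gene of each list, and the 3 nearest features of RN7SL2, RN7SK, RPPH1 and RMRP. SRP72, VTRNA2-1 and RNU5E-1 are also named, as a single call, a gene without counts and an exception, and VIM and CD44 as markers, all chosen after their values were seen. Transcript lengths and copies added to a family in the replicate ratio were alternatives chosen after the data were seen. The others were the R2 table, the mates summed, each replicate left out, other denominators and scalings, and lower count minimums.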

Additional observations from a re-analysis of the deposited data

How the results depend on the processing

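With R2 in place of R1, the summed level of the 6 RNAs was 2645 CPM and the 7SL share of them 46.0%. The summed level was 2590 CPM when the denominator lacked the 10 features with most counts and 11132 CPM with tRNA and overlapping features left out of it. Leaving out either replicate gave 835 to 2199 CPM and a 7SL share of 50.1 to 57.3%; with 2 libraries such a shift cannot exceed the SD, so this is no sign of stability. The 7SL share was 48.2% with dispersed copies added and 60.2% per kilobase of listed feature, where RPPH1 has the long span. Calls over all features numbered 15491 with table totals and 3736 with the mates summed (1453 higher and 2283 lower). Of the 6 pairs that remain with the 7SL genes summed, 5 differed. The log2 ratio changed sign for RN7SK with table totals (0.93), and for RMRP with table totals (0.95) and in R2 (0.022). RMRP also lost its call with lower count minimums, which change the TMM factors. RN7SL1, RN7SL2, RN7SL3 and RPPH1 kept their direction and call under each scaling, mate and minimum tried. These settings are not independent checks. Table totals called 81.3% of all features higher, the mates are reads of the same fragments, and the other minimums use the same counts. The cause of the other shifts was not tested. No paired analysis was possible because both libraries belong to the same group. A replicate cannot be left out of a test between the replicates, so no such value is given. Depth limits the log2 ratio of RN7SL3 most, whose interval in R1 (0.16 to 0.47) is the widest of the 6.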
